A study of Rattus norvegicus with 9 samples.

Results

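Proteins of several kinds free, take up, carry and store the long-chain fatty acids of kidney cells. The 10 genes described here encode some of them: Cd36, Slc27a1, Slc27a2, Slc27a4, Fabp1, Fabp3, Fabp4, Fabp5, Lpl and Plin2. They were taken by gene symbol from a table of 19367 genes, in which each of the 10 symbols had a row. Of these, 9 were expressed well enough to be tested, and Fabp1 was not. RNA was sequenced from rat kidney in 9 libraries, in 3 groups of 3. The first group was spontaneously hypertensive rats (SHR, an inbred strain that develops high blood pressure with age) that received oral dapagliflozin, 10 mg/kg each day over 8 weeks. The second was SHR given distilled water, called untreated SHR, and the third was Wistar-Kyoto rats (WKY, a normotensive strain), also given water. All rats were 3 months old at the start. Dapagliflozin blocks SGLT2, the cotransporter through which the early proximal tubule takes back filtered glucose.

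The labels limit what the groups can stand for. One field names saline where the protocol names water, and one gives all 9 samples the WKY strain, so the titles were used to form groups. Each group had 3 rats, yet nothing links a given library to a given rat, so the p-values speak only to spread among libraries, which may be technical. The SHR colony is not named, and whole kidney was used, so fewer cells of a type and less RNA per cell cannot be told apart. Marker genes of the kidney (Umod, Slc12a1 and Aqp2) were present in all 9 libraries. Expression is in FPKM, a read density per transcript length and library size, and it summed to 563643 to 589838 per library. Read totals are unknown, so no counting interval can be given.

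Fatty acids travel in blood bound to albumin or as triglyceride in lipoproteins. Lipoprotein lipase (Lpl) frees them from triglyceride at the capillary wall. CD36, the fatty acid translocase, binds them at the cell surface. The fatty acid transport proteins of the SLC27 family take them up and attach coenzyme A. Inside the cell, small fatty acid binding proteins (FABP) carry them to mitochondria, peroxisomes, the nucleus or the lipid droplet, which perilipin 2 (Plin2) coats. The proximal tubule depends on fatty acid oxidation for its energy. A defective Cd36 gene has been described in SHR of some colonies and not of others.

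Promoter windows are shown for 3 genes that stood for different patterns below: Cd36, low in both SHR groups, Slc27a2, the transport protein with the most transcript, and Fabp3, the binding protein with the most. Each window runs from 250 bases before to 50 bases after the gene's start, is written 5′ to 3′ on the gene's own strand, and comes from RefSeq on the GRCr8 build. The regions are chr4:18246332-18246631 for Cd36, chr3:134257851-134258150 for Slc27a2 and chr5:147935875-147936174 for Fabp3, all on the plus strand. Capitals mark matches on either strand to AGGTCA, the half-site of the element that PPAR and other nuclear receptors bind, or to TATAAA, the TATA box.
Cd36: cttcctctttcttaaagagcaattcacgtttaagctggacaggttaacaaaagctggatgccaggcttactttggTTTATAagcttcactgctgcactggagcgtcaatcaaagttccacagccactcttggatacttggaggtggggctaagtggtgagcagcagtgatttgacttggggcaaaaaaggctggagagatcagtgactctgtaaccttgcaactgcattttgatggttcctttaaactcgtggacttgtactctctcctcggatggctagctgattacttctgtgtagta
Slc27a2: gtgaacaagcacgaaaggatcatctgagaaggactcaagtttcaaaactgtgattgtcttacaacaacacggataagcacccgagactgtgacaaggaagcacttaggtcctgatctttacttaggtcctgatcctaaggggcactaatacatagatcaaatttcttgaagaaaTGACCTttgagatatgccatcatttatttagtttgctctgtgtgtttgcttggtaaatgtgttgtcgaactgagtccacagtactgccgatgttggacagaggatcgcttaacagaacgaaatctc
Fabp3: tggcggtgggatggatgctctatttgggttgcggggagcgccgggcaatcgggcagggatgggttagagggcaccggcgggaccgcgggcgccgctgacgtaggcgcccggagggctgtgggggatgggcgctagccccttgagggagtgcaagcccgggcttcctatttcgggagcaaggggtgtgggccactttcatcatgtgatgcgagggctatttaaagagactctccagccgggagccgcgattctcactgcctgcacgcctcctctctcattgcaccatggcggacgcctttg
The Cd36 window held TTTATA, which is TATAAA on the other strand, at -175 to -170 from the start. The Slc27a2 window held TGACCT, which is AGGTCA on the other strand, at -76 to -71, and the Fabp3 window held neither. Of 27457 rat promoter windows of this length, 15.7% held AGGTCA and 14.3% held TATAAA on either strand. The full paired element, a direct repeat of AGGTCA spaced by a single base, was in 16 of the 27457 windows and in no window of the 7 genes with a promoter sequence, which are Cd36, Slc27a1, Slc27a2, Slc27a4, Fabp1, Fabp3 and Plin2. G and C made up 45.7% of the Cd36 window, 41.7% of the Slc27a2 window and 65.0% of the Fabp3 window, against a median of 52.3% over all windows. These matches are letters in a window and were not tested as binding sites.

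By mean FPKM over the 9 libraries, which is per transcript length and so can be compared between genes, Fabp3 stood first at 313.9 and Slc27a2 second at 178.8. Plin2 (43.5), Lpl (41.2), Fabp5 (27.9), Slc27a4 (21.7) and Slc27a1 (11.4) followed. Cd36 (3.90), Fabp4 (1.32) and Fabp1 (0.181) came last. This order pools groups that differ. In WKY alone, Slc27a2 averaged 248 ± 28.2 FPKM and Fabp3 245 ± 79.3, which did not differ beyond their spread (SD, n = 3 each), and neither did Cd36 at 9.41 ± 2.85 and Slc27a1 at 10.3 ± 0.651.

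**Figure D1:**
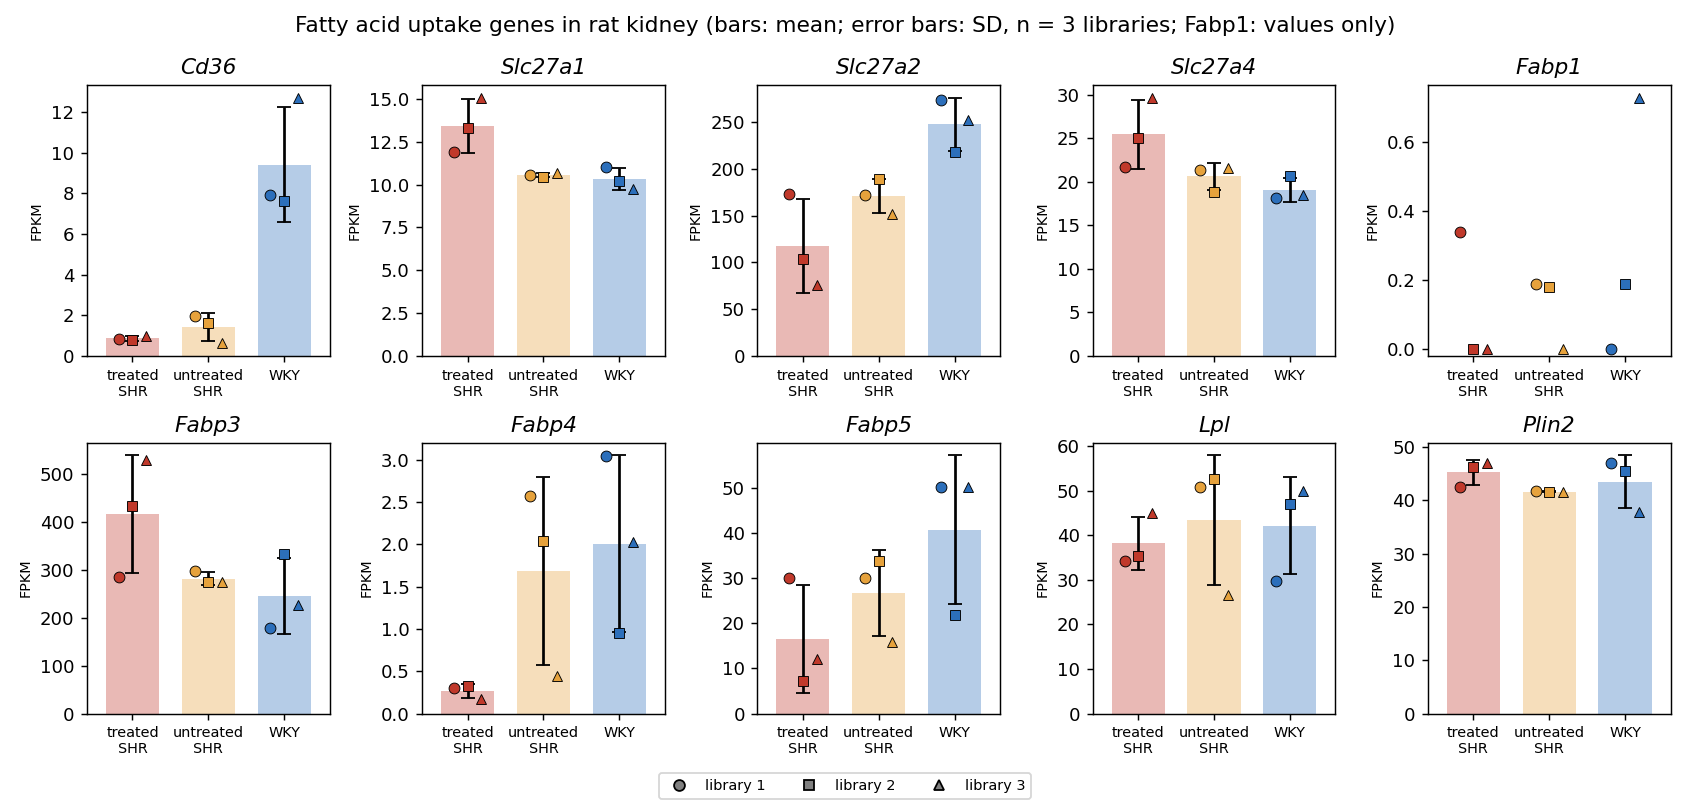
FPKM of each of the 10 genes (one panel each, linear axis from 0) in dapagliflozin-treated SHR, untreated SHR and WKY, with points for the libraries, bars for the mean and error bars for the SD of 3 libraries; Fabp1 has points only. The Cd36 points of both SHR groups lie at 0.65 to 1.95, below the WKY points at 7.64 to 12.69, and the Lpl points of the 3 groups overlap.

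Differences were tested with limma on log2(FPKM + 1) over 13127 genes, and a gene was called at a Benjamini-Hochberg adjusted p below 0.05 over all of them. The scale understates the fold change of weakly expressed genes. For treated SHR against untreated SHR, which asks what the drug did within the hypertensive strain, none of the 9 tested uptake genes was called, and the share of all tested genes called was 0%. At an unadjusted p below 0.05 there were 4 of the 9 (Slc27a1, Slc27a2, Slc27a4 and Fabp4), against 15.2% of all tested genes. The groups did not overlap for 4 of the 9, against 19% of all tested genes. Slc27a1, Slc27a4 and Plin2 were the 3 with treated SHR above (12.6% of all tested genes), and Fabp4 the 1 with treated SHR below (6.44%).

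For untreated SHR against WKY, the strain comparison, Cd36 was the only one of the 9 called, and it was lower, against 2.96% of all tested genes called in either direction, 1.84% higher and 1.12% lower. It was also the 1 gene of the 9 at an unadjusted p below 0.05, against 19.5% of all tested genes. The groups did not overlap for 2 of the 9, Cd36 and Slc27a2, both lower in untreated SHR. Of all tested genes, 28.4% had groups that did not overlap, 20.3% with untreated SHR above and 8.11% with it below. For treated SHR against WKY, which carries strain and drug together, 5 of the 9 were called, against 22.9% of all tested genes. Slc27a1 and Slc27a4 were higher (16.8% of all tested genes were), while Cd36, Slc27a2 and Fabp4 were lower (6.09% were). At an unadjusted p below 0.05 there were 7 of the 9, against 40.2% of all tested genes. The same 5 called genes had groups that did not overlap, against 38.6% of all tested genes, 28.2% with treated SHR above and 10.4% with it below. The 3 comparisons share their libraries, so they are not independent of each other.

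The log2 differences of all tested genes were not centred on 0. Their median log2 difference was 0.11 for treated SHR against WKY, and -0.01 after median-of-ratios scaling. For untreated SHR against WKY it was 0.0742, and 0.00257 after that scaling. For treated against untreated SHR it was 0.0356, and -0.0136 after that scaling. Among all genes called in treated SHR against WKY, the share higher was 73.5% as deposited, 59.9% after quantile normalization and 53.6% after median-of-ratios scaling. For untreated SHR against WKY that share was 62.1%, 49.6% and 52.5% on the same 3 scales. In treated SHR against WKY, the direction of the 5 calls among the uptake genes was the same on these scales. However, Slc27a1 and Slc27a4, both higher, did not pass the test on either alternative scale. Fabp4 did not pass after quantile normalization (limma adjusted p = 0.0527).

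**Figure D2:**
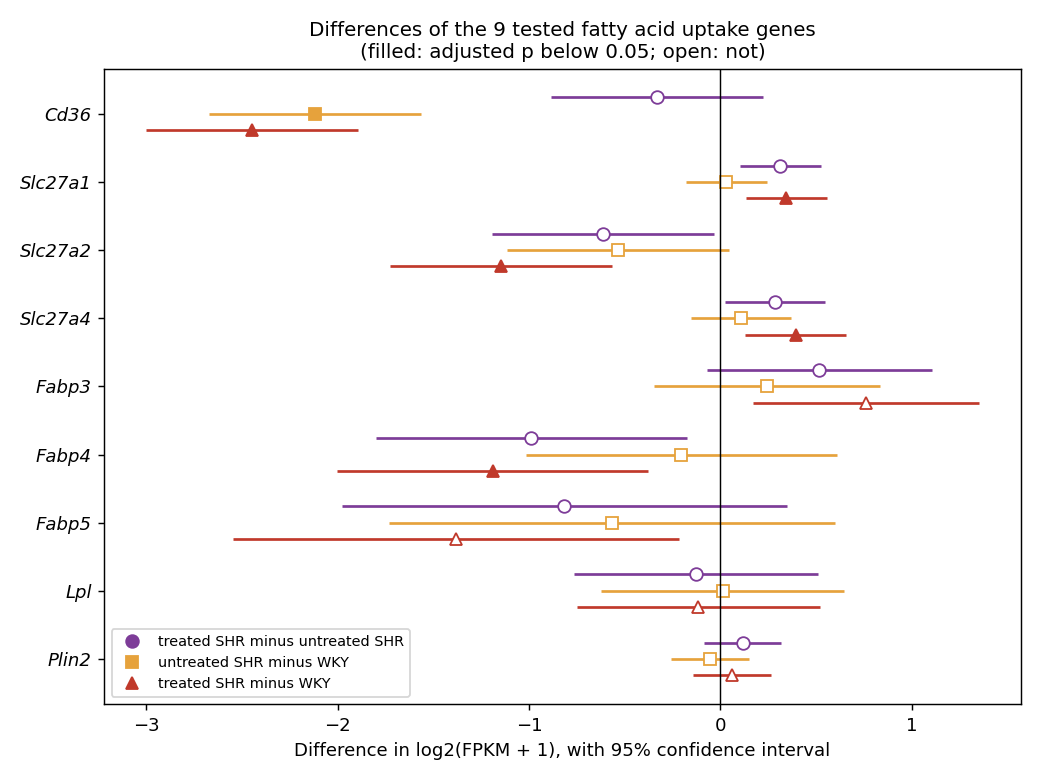
Log2 differences of the 9 tested genes on log2(FPKM + 1) in the 3 comparisons, with 95% confidence intervals from limma over 9 libraries. The interval of Cd36 lies wholly below 0 in untreated SHR against WKY (-2.67 to -1.56) and spans 0 in treated against untreated SHR (-0.88 to 0.22).

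Cd36, the surface translocase, was low in both SHR groups. It measured 0.83, 0.78 and 0.99 FPKM in treated SHR libraries 1 to 3, 1.95, 1.64 and 0.65 in untreated SHR, and 7.89, 7.64 and 12.69 in WKY. Every SHR library lay below every WKY library, and treated SHR lay within the range of untreated SHR. The filter asked for an FPKM of 1 in 3 libraries, and Cd36 reached it in 5, all of WKY and untreated SHR libraries 1 and 2. No treated library reached it, so Cd36 passed the filter only with the WKY libraries, where it was high. The untreated SHR mean was 15.0% of the WKY mean (1.41 ± 0.679 against 9.41 ± 2.85 FPKM, SD, n = 3 each). The log2 difference was -2.12 (SE 0.24, limma adjusted p = 0.00262) for untreated SHR against WKY and -2.45 (SE 0.24, adjusted p = 0.000902) for treated SHR against WKY. With no filter on low values the limma adjusted p was 0.00509 and 0.00206 in the same order. Between treated and untreated SHR the difference was -0.33 (SE 0.24, adjusted p = 0.525), and its 95% interval of -0.88 to 0.22 leaves both directions possible. With pseudocounts of 0.1 and 0.01 it was -0.53 and -0.56, again not called.

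The Cd36 values carry a possible limit from a Cd36-like gene, whose likeness in sequence was not tested. The reference lists this gene, RGD1565355 (Cd36l1), on chromosome 4 as the next one after Cd36 among genes with measured values. Reads could be split between them. RGD1565355 itself measured 0.68, 0.27 and 0.93 FPKM in treated SHR, 1.93, 0.71 and 0.6 in untreated SHR, and 0.66, 0 and 1.75 in WKY, with all groups overlapping. With both genes added together, an alternative chosen after seeing the data, the sums were 1.51, 1.05 and 1.92 in treated SHR, 3.88, 2.35 and 1.25 in untreated SHR, and 8.55, 7.64 and 14.44 in WKY. The SHR libraries still lay below the WKY libraries, with a log2 difference of -1.70 (adjusted p = 0.0218) for untreated SHR against WKY and -2.14 (adjusted p = 0.0052) for treated SHR against WKY.

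Among genes with measured values, those on either side of Cd36 in the reference order did not all share its pattern. Gnai1, a G protein subunit, had a log2 difference of 0.11 (SE 0.10, adjusted p = 0.548) for untreated SHR against WKY. Sema3c, a secreted semaphorin on the other side, had one of -0.06 (SE 0.12, adjusted p = 0.807). Gnat3, the taste-cell transducin subunit next to Cd36, was too low to be tested. It measured 0.23, 0.05 and 0.32 FPKM in treated SHR, 0.36, 0.55 and 0.23 in untreated SHR, and 0.91, 1.06 and 1.24 in WKY, so its SHR libraries also lay below its WKY libraries. LOC102547160, the third gene on the Gnai1 side, was not called in any of the 3 comparisons, and LOC102551166 was listed at no more than 0.03 in any library.

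The 3 tested transport proteins of the SLC27 family did not move together. Slc27a2 (FATP2), a very long-chain acyl-CoA synthetase of peroxisomes and endoplasmic reticulum, measured 173.12, 103.68 and 75.94 FPKM in treated SHR, 171.96, 188.9 and 151.95 in untreated SHR, and 273.66, 217.73 and 252.39 in WKY. All SHR libraries lay below all WKY libraries, and treated libraries 2 and 3 lay below every untreated SHR library while treated library 1 did not. Treated SHR averaged 118 ± 50.1 FPKM, untreated SHR 171 ± 18.5 and WKY 248 ± 28.2 (SD, n = 3 each). The log2 difference was -1.15 (SE 0.26, adjusted p = 0.0187) for treated SHR against WKY. It did not pass for untreated SHR against WKY (-0.53, SE 0.26, adjusted p = 0.291) or for treated against untreated SHR (-0.61, SE 0.26, adjusted p = 0.315). The call against WKY was lost without WKY library 1, WKY library 3 or treated library 2, at adjusted p of 0.0677, 0.0697 and 0.0597, and with only those groups fitted (0.0555).

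Slc27a4 (FATP4), an acyl-CoA synthetase and transporter first studied in the intestine, measured 21.77, 25.1 and 29.67 FPKM in treated SHR, 21.4, 18.82 and 21.66 in untreated SHR, and 18.1, 20.63 and 18.46 in WKY. Each treated library lay above every other library. Slc27a1 (FATP1), the insulin-responsive form of muscle and fat, had the same order, with 11.9, 13.3 and 15.06 FPKM in treated SHR, 10.56, 10.45 and 10.67 in untreated SHR, and 11.04, 10.19 and 9.76 in WKY. Against WKY, treated SHR was higher by a log2 difference of 0.39 for Slc27a4 (SE 0.12, adjusted p = 0.0411) and 0.34 for Slc27a1 (SE 0.09, adjusted p = 0.0328). After median-of-ratios scaling these were 0.26 and 0.22, with adjusted p of 0.0659 and 0.0851. Leaving out 1 library ended the Slc27a4 call in every case but WKY library 2 and treated library 1 (adjusted p of 0.0531 to 0.127), and the Slc27a1 call in every case but untreated library 3 and treated library 1 (0.0513 to 0.113). With only those groups fitted, the adjusted p was 0.0857 for Slc27a4 and 0.0834 for Slc27a1, and with no filter it was 0.0551 for Slc27a4. Against untreated SHR the differences were 0.29 (SE 0.12, adjusted p = 0.31) and 0.31 (SE 0.09, adjusted p = 0.281), and neither passed.

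The make-up of the SLC27 family differed accordingly between libraries. Slc27a2 held 83.6, 72.7 and 62.6% of the summed SLC27 FPKM in treated SHR, 83.9, 86.3 and 82.1% in untreated SHR, and 90.2, 87.4 and 89.8% in WKY. Slc27a4 held 10.5, 17.6 and 24.5% in treated SHR, 10.5, 8.60 and 11.7% in untreated SHR, and 5.97, 8.28 and 6.57% in WKY. All 6 SHR libraries thus had a smaller Slc27a2 share and a larger Slc27a4 share than any WKY library. Shares within a family sum to a fixed total and were not tested. Of the remaining family members, Slc27a3 and Slc27a5 did not pass the filter on low values, at 0.27 to 0.89 and at most 0.04 FPKM.

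**Figure D3:**
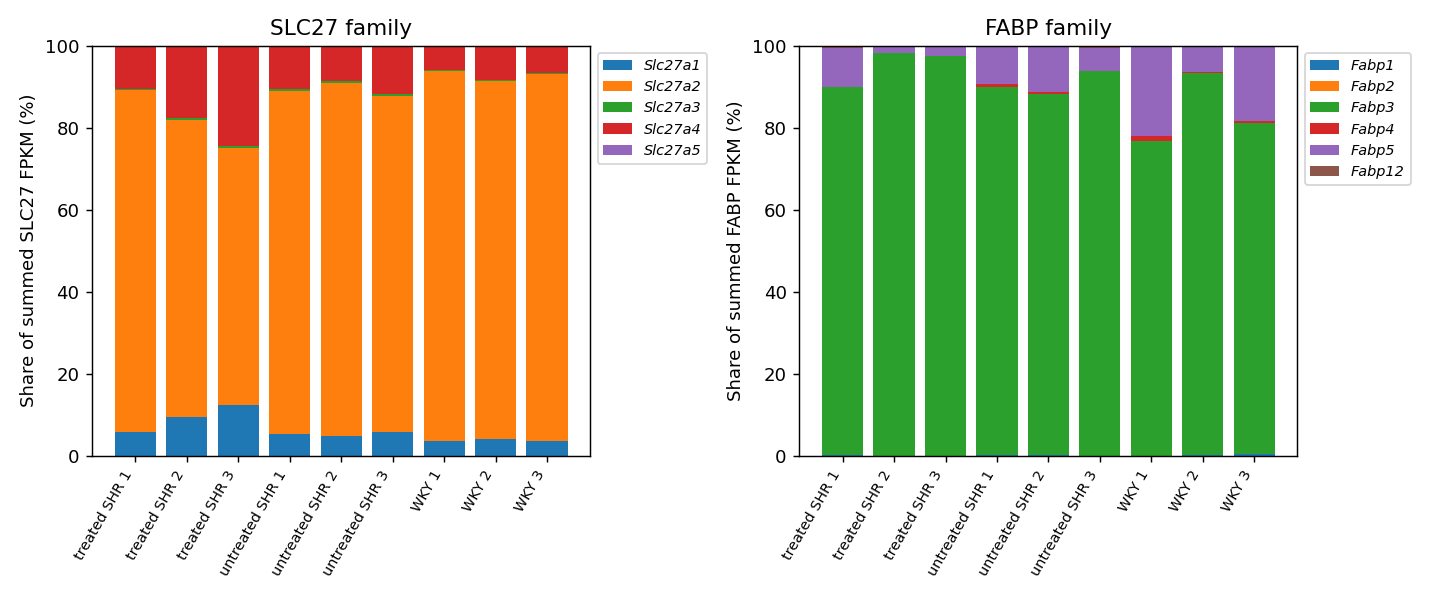
Share of the summed FPKM of the SLC27 genes and of the FABP genes held by each gene, in percent, 1 stacked bar per library with the treated SHR libraries at the left and WKY at the right. Slc27a2 holds 62.6 to 83.6% of the SLC27 sum in treated SHR, 82.1 to 86.3% in untreated SHR and 87.4 to 90.2% in WKY, and Fabp3 holds most of the FABP sum throughout.

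Lpl, which frees fatty acids from lipoprotein triglyceride, showed no difference past the test. It measured 34.1, 35.41 and 44.95 FPKM in treated SHR, 50.88, 52.54 and 26.58 in untreated SHR, and 29.61, 46.91 and 49.9 in WKY. The 3 groups overlapped, and the lowest of the 9 libraries was an untreated SHR library. Its log2 difference was -0.13 for treated against untreated SHR (95% interval -0.76 to 0.51, adjusted p = 0.846) and 0.01 for untreated SHR against WKY (-0.62 to 0.65, adjusted p = 0.985). These intervals are wide enough to hold sizeable differences in either direction. Gpihbp1, which anchors the lipase on capillary endothelium, was listed at no more than 0.15 FPKM in any library.

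Among the binding proteins, Fabp3, the heart-type form, had the highest FPKM. It measured 285.34, 431.9 and 528.99 FPKM in treated SHR, 296.4, 273.61 and 273.24 in untreated SHR, and 177.82, 332.68 and 225.43 in WKY. Treated libraries 2 and 3 were the highest of the 9, while treated library 1 lay within the untreated range. The log2 difference was 0.52 (SE 0.26, adjusted p = 0.364) for treated against untreated SHR and 0.76 (SE 0.26, adjusted p = 0.0636) for treated SHR against WKY. Neither passed. Striated muscle markers summed over 7 genes to between 0.73 and 1.66 FPKM in each library.

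Fabp5, the epidermal form that is also found in endothelium and macrophages, ran the other way, with 30.01, 7.27 and 12.12 FPKM in treated SHR, 30.12, 33.87 and 15.9 in untreated SHR, and 50.17, 21.74 and 50.23 in WKY. The groups overlapped in every comparison. Its log2 difference was -0.82 (SE 0.51, adjusted p = 0.449) for treated against untreated SHR and -1.38 (SE 0.51, adjusted p = 0.0796) for treated SHR against WKY. The reference lists processed copies of Fabp5, so its reads may have been split. Without treated library 1, the differences from WKY passed for Fabp3 (1.01, adjusted p = 0.0125) and Fabp5 (-1.91, adjusted p = 0.012).

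Fabp4, the adipocyte form also made by capillary endothelium and macrophages, measured 0.3, 0.32 and 0.17 FPKM in treated SHR, 2.57, 2.04 and 0.44 in untreated SHR, and 3.04, 0.95 and 2.03 in WKY. Every treated library lay below every other library, and none of the treated libraries reached the FPKM of 1 that the filter asked of 3 libraries. The log2 difference was -1.19 (SE 0.36, adjusted p = 0.0442) for treated SHR against WKY, and -0.99 (SE 0.36, adjusted p = 0.293) for treated against untreated SHR, which did not pass. The call was lost without any of the 3 treated libraries, WKY library 1 or 3, or untreated library 2, at adjusted p of 0.0521 to 0.142, and with no filter on low values (0.0618). At this low level the size depends on the pseudocount. With 0.1 and 0.01 in place of 1, the difference was -2.42 and -2.78 against WKY (adjusted p = 0.0295 and 0.0271), and -2.03 and -2.34 against untreated SHR (0.29 and 0.292). Levels of the adipocyte list averaged 1.24 to 1.42 on the log2(FPKM + 1) scale over all 9 libraries. In that list Retn was at 0 in every library, Lep at no more than 0.10, Plin1 at no more than 0.73 and Cfd at no more than 0.39 FPKM, Adrb3 at no more than 0.04, and Adig at 0.4 to 1.11. The other genes of the list were higher, Adipoq at 9.97 to 18.92 FPKM, Lipe at 1.66 to 4.05 and Cidec at 11.89 to 67.47. Cidec and Lipe are also in the lipid droplet list. The summed level of the 9 listed adipocyte genes was 32.2 to 84.8 FPKM in treated SHR, 51.0 to 68.4 in untreated SHR and 42.6 to 64.5 in WKY. The macrophage list averaged 1.80, 2.65 and 2.22 in treated SHR, 2.95, 2.40 and 2.001 in untreated SHR, and 1.92, 2.48 and 2.73 in WKY. The endothelial list averaged 4.28, 4.88 and 4.86 in treated SHR, 4.86, 4.28 and 4.53 in untreated SHR, and 3.44, 4.52 and 4.34 in WKY. The part of these cell types in the Fabp4 values was not tested.

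Fabp1, the liver-type form, is listed at 0 in 4 of the 9 libraries. It measured 0.34, 0 and 0 FPKM in treated SHR, 0.19, 0.18 and 0 in untreated SHR, and 0, 0.19 and 0.73 in WKY, and no fold is given. Fabp2, the intestinal form, and Fabp12 were also too low to be tested. Fabp3 held 89.8, 98.2 and 97.6% of the summed FABP FPKM in treated SHR, 89.8, 88.1 and 93.8% in untreated SHR, and 76.7, 93.4 and 80.8% in WKY.

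Plin2, which coats lipid droplets and is often read as a sign of stored lipid, stayed within a narrow band. It measured 42.55, 46.31 and 46.95 FPKM in treated SHR, 41.79, 41.55 and 41.67 in untreated SHR, and 47.04, 45.59 and 37.84 in WKY. All treated libraries lay above all untreated SHR libraries, which had an SD of 0.12 FPKM (n = 3), while the WKY libraries spanned both. The log2 difference was 0.12 (SE 0.09, adjusted p = 0.542) for treated against untreated SHR and -0.05 (SE 0.09, adjusted p = 0.756) for untreated SHR against WKY. Neither passed.

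Of the nephron segment lists, the late proximal and principal cell lists varied across the same libraries as Slc27a2, Fabp5 and Fabp3. The late proximal tubule list of 7 genes, as mean log2(FPKM + 1), stood at 6.23, 4.55 and 4.82 in treated SHR, 5.94, 6.17 and 5.93 in untreated SHR, and 7.02, 6.14 and 6.86 in WKY. The early proximal list of 9 genes stood at 4.37, 5.45 and 4.38 in treated SHR, 5.93, 5.54 and 4.99 in untreated SHR, and 5.66, 6.22 and 5.97 in WKY. The collecting duct principal cell list of 6 genes ran the other way, at 6.89, 7.18 and 7.64 in treated SHR, 6.43, 6.40 and 6.74 in untreated SHR, and 5.25, 5.93 and 5.501 in WKY. Treated libraries 2 and 3, low in Slc27a2 and Fabp5 and high in Fabp3, were also the lowest 2 of 9 in the late proximal list and the highest 2 in the principal cell list. The early proximal list did not follow this order, as treated libraries 1 and 3 were its lowest 2. The thick limb list of 6 genes stood at 7.99, 7.51 and 8.00 in treated SHR, 8.15, 8.23 and 7.77 in untreated SHR, and 7.785, 8.05 and 8.19 in WKY. Cd36 did not set treated libraries 2 and 3 apart, at 0.78 and 0.99 FPKM there and 0.83 in treated library 1. Between treated SHR and WKY, 3 of 7 late proximal, 3 of 9 early proximal and 0 of 6 principal cell genes were called lower, against 6.09% of all tested genes. In the same comparison 6 of 6 principal cell genes were called higher, against 16.8% of all tested genes. Of 6 thick limb genes, 2 were called higher and 1 lower. With the mean of both proximal lists added to the model, no uptake gene was called in any comparison. Of all tested genes, 48 were then called higher and 31 lower in untreated SHR against WKY. In treated SHR against WKY 8 were called higher and 5 lower. Cd36 was then at -1.75 (SE 0.34, adjusted p = 0.101) for untreated SHR against WKY, and Slc27a2 at 0.35 (SE 0.50, adjusted p = 1) for treated SHR against WKY. The lists differ between the groups themselves, so the group and the segment mix cannot be told apart.

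**Figure D4:**
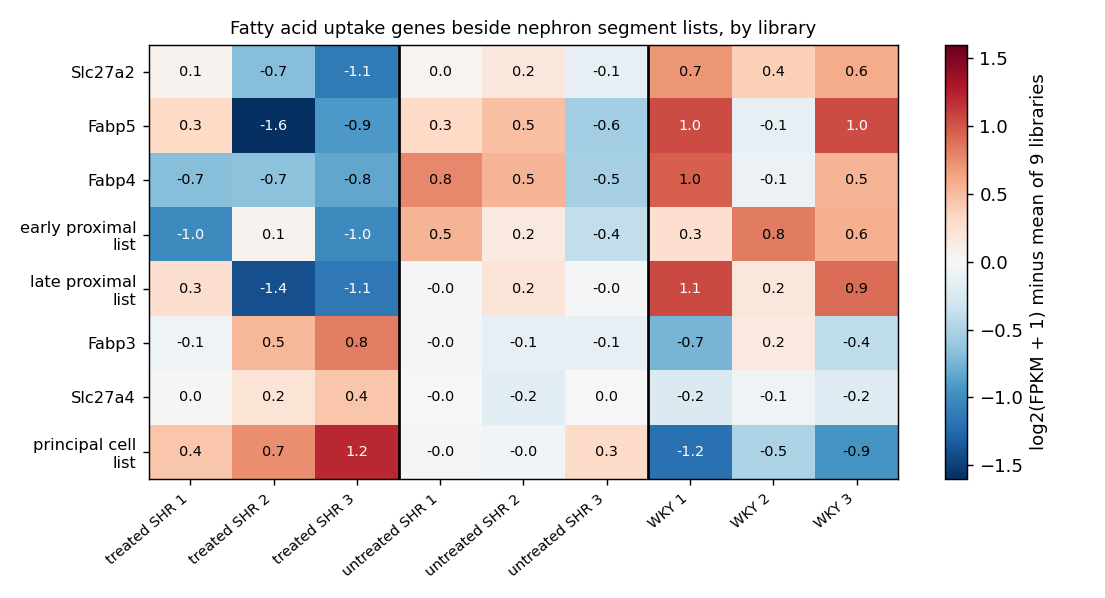
Level of Slc27a2, Fabp5, Fabp4, Fabp3 and Slc27a4 and the mean level of 3 nephron segment lists in each of the 9 libraries, as log2(FPKM + 1) minus the mean of the 9 libraries (red higher, blue lower, value in each cell, treated SHR at the left). Treated libraries 2 and 3 are low for Slc27a2, Fabp5 and the late proximal list and high for Fabp3 and the principal cell list. The early proximal list is low in treated libraries 1 and 3 instead.

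Several calls in the comparisons with treated SHR depended on single libraries, among them treated library 1. Without it, 2 of the 9 genes were called in treated against untreated SHR, Slc27a1 (0.39, adjusted p = 0.0444) and Slc27a2 (-0.93, adjusted p = 0.0292), and 834 of the genes tested were called in all. With libraries weighted by their spread (array weights), 6 of the 9 were called in that comparison, among 3590 genes. In treated SHR against WKY the count of 5 ranged between 1 and 6 over the fits that left out 1 library. Cd36 was called in untreated SHR against WKY in each of those fits.

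The 5 tested genes whose log2 level over the 9 libraries was most like that of Cd36 were Rpl23, Rpl26, Cisd2, Hba-a3 and Dapk2, with Pearson's r of 0.978, 0.978, 0.977, 0.975 and 0.972 among 13126 genes compared. These correlations are a description over 9 libraries that share the 3 groups. Hba-a3, an alpha globin gene, measured 0, 0 and 0.26 FPKM in treated SHR, 0.49, 0 and 0.24 in untreated SHR, and 22.23, 29.11 and 44.69 in WKY. Globin and ribosomal protein genes have near-identical copies, so their values are uncertain. Dapk2, a death-associated protein kinase, averaged 1.34 ± 0.0794 FPKM in treated SHR, 1.69 ± 0.0586 in untreated SHR and 20.9 ± 2.70 in WKY (SD, n = 3 each).

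The other genes had different neighbours in level. Slc27a2 was nearest to RGD1559960 and Erbb3, a receptor tyrosine kinase of the EGF receptor family (r = 0.991 and 0.990). Slc27a4 was nearest to Cyth3 and Asah2, the neutral ceramidase (0.994 and 0.991), and Slc27a1 to Trib3 and Dsp (0.985 and 0.982). Fabp3 was nearest to Gas6, a ligand of TAM receptors, and Igfbp7 (0.996 and 0.993). Fabp5 was nearest to Slc22a7, an organic anion transporter that is itself in the late proximal list, and Hcn3 (0.988 and 0.986). Fabp4 was nearest to Frs3 and Slc22a13, which is in the same list (0.957 and 0.948). Lpl and Plin2 had weaker likenesses, with Tmem267 and Cdkn2c at 0.961 and 0.938 for Lpl and Wwp2 and Mterf4 at 0.919 and 0.914 for Plin2.

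Of 83 tested genes in 6 lists of neighbouring pathway genes, 0 were called in treated against untreated SHR, with 20 at an unadjusted p below 0.05, against 15.2% of all tested genes. Without treated library 1, 11 of 82 were called, where 409 of all tested genes were called higher and 425 lower. With array weights it was 27 of 83, where 2296 of all 13127 tested genes were called higher and 1294 lower. In untreated SHR against WKY 2 of the 83 were called, both lower, against 2.96% of all tested genes, and 16 had an unadjusted p below 0.05, against 19.5%. With array weights 24 of the 83 were called, 19 higher and 5 lower, where 2752 of all 13127 tested genes were called higher and 1159 lower. With the proximal tubule covariate 0 of the 83 were called, where 48 of all tested genes were called higher and 31 lower. Vldlr, the very low density lipoprotein receptor, averaged 5.03 ± 0.115 FPKM in untreated SHR and 8.71 ± 0.720 in WKY (log2 difference -0.68, adjusted p = 0.00818). Cpt1b, the muscle-type carnitine palmitoyltransferase, averaged 5.61 ± 0.176 FPKM in untreated SHR and 10.6 ± 1.54 in WKY (-0.80, adjusted p = 0.0219). In treated SHR against WKY, 27 of the 83 were called, 19 higher and 8 lower, against 22.9% of all tested genes called, 16.8% higher and 6.09% lower. On the median-of-ratios scale it was 22 of the 83, 13 higher and 9 lower, where 1445 of all 13127 tested genes were called higher and 1251 lower. With only those groups fitted it was 6 of the 83, where 754 of all tested genes were called higher and 272 lower. With array weights it was 59, where 5994 of all tested genes were called higher and 2817 lower. With the proximal tubule covariate it was 0, where 8 of all tested genes were called higher and 5 lower. Without single libraries the count of list genes called ranged from 3 to 34. It was 3 without WKY library 3, where 381 of all tested genes were called higher and 134 lower. It was 34 without treated library 1, where 3403 of all tested genes were called higher and 1386 lower.

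The called genes of treated SHR against WKY fell into the pathway steps as follows, to be read against the 16.8% of all tested genes called higher and 6.09% called lower. In the list for fatty acid activation and binding, 4 of 10 tested genes were called, all higher, against a list median log2 difference of 0.10. Acsl1, an acyl-CoA synthetase, averaged 93.5 ± 21.3 FPKM in treated SHR and 48.1 ± 7.86 in WKY (log2 difference 0.93, adjusted p = 0.0122), and Got2, Acsl5 and Acsl3 were also higher. Of 13 tested lipase partners and lipoprotein receptors, 4 were higher and 2 lower, with Apoc3, an inhibitor of lipoprotein lipase, at 12.1 ± 3.95 FPKM in treated SHR and 29.0 ± 4.08 in WKY (-1.23, adjusted p = 0.00715). Of 18 tested lipid droplet genes, 4 were higher, among them Pnpla2, the adipose triglyceride lipase (0.47, adjusted p = 0.0181), and Plin3 (1.02, adjusted p = 0.0184), and 1 was lower, Cideb (-0.85, adjusted p = 0.0323).

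Of 11 tested lipid-sensing factors, 2 were called higher in treated SHR than in WKY and 1 lower. The shares of all tested genes, here and for the lists below, were 16.8% higher and 6.09% lower. Srebf1 (0.53, adjusted p = 0.0421) and Rxra (0.36, adjusted p = 0.0467) were the higher ones. Nr1h3, the liver X receptor alpha, was lower (-0.53, adjusted p = 0.0255). Of 22 tested PPAR target genes, 1 was higher and 4 lower. Cpt2, the inner-membrane carnitine palmitoyltransferase, was the higher one (0.56, adjusted p = 0.012), and Cpt1b, Acot1 and Cyp4a3 were among the lower ones. Acot1 and Cyp4a3 have near-identical copies, Acot2 and Cyp4a2, and their values are uncertain. Of 9 tested genes for proteins that work with CD36, 4 were higher and 0 lower. Cav1, the caveolin coat protein of plasma membrane pits, averaged 52.2 ± 16.8 FPKM in treated SHR and 19.5 ± 3.46 in WKY (1.34, adjusted p = 0.00872), and Cav2, the Src-family kinases Lyn and Fyn were also higher.

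**Figure D5:**
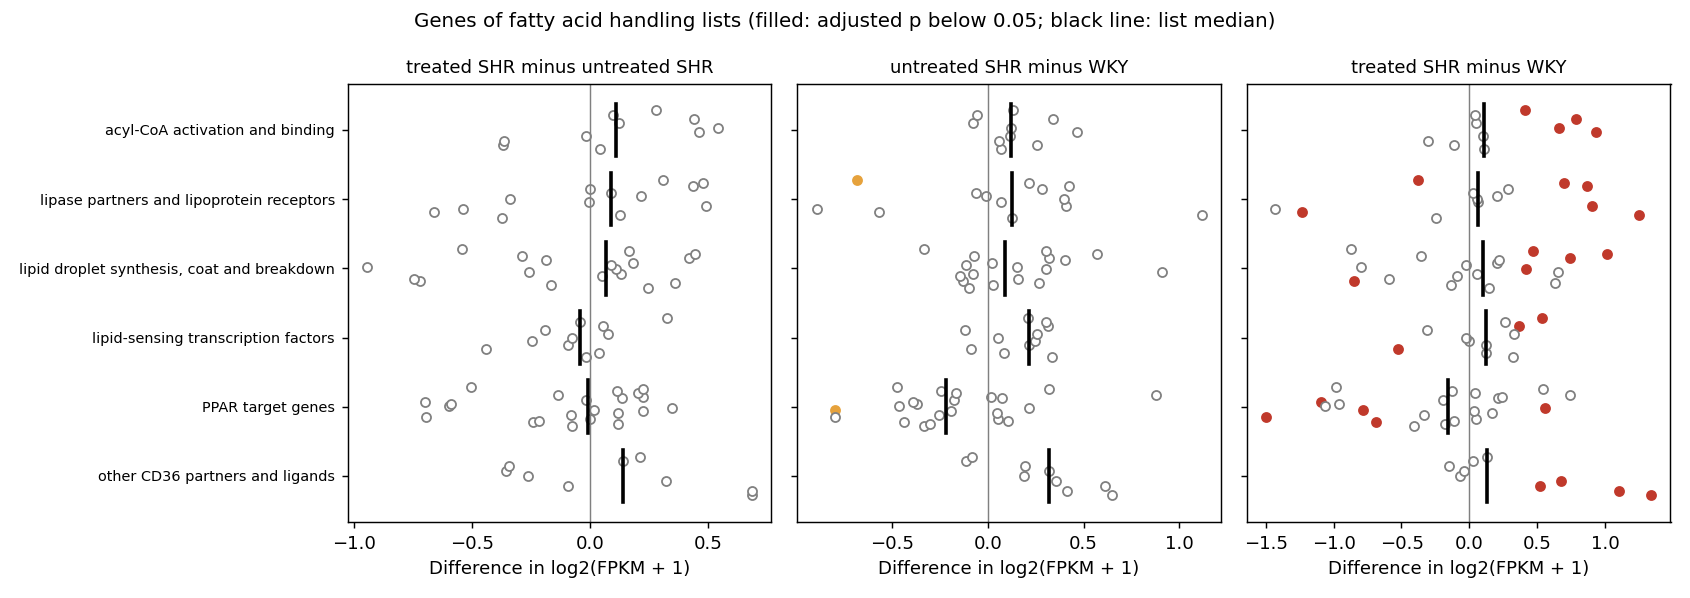
Log2 differences on log2(FPKM + 1) of the tested genes in each of the 6 pathway lists in the 3 comparisons, with the called genes marked apart from those that did not pass. In treated SHR against WKY 27 of the 83 genes are called, 19 of them higher, against 0 in treated against untreated SHR and 2 in untreated SHR against WKY.

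In treated against untreated SHR the list genes with the smallest p, none of which passed, had adjusted p of 0.281 to 0.356. Acsl3 was at 51.2 ± 12.0 FPKM in treated SHR and 34.2 ± 3.47 in untreated SHR (log2 difference 0.54, adjusted p = 0.281), and Apoc3 at 12.1 ± 3.95 in treated SHR and 19.1 ± 0.801 in untreated SHR (-0.66, adjusted p = 0.281). In untreated SHR against WKY, Fyn, a Src-family kinase that works with CD36, came nearest among those not called, at 12.9 ± 2.51 FPKM in untreated SHR and 8.00 ± 1.01 in WKY (0.62, adjusted p = 0.0804).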

How the data were processed

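The data are RNA profiles of rat kidney with 3 libraries per group, and sample titles define the groups. Per the labels' protocols, Trizol was used for extraction and a BGISEQ-500 gave 50-base single-end reads. HISAT2 (2.0.4) and Bowtie2 (2.2.5) are named per the submitters' processing notes, as is the Rnor_6.0 build, without roles. What program, annotation, filters and strand setting produced the deposited FPKM is not given in the sources used. Since FPKM is relative to all mapped reads of a library, a large change in abundant transcripts shifts the rest, and near-identical copies can exchange reads.

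The authors' FPKM were log2 transformed after adding 1. Of the 19367 genes, 13127 reached an FPKM of 1 in 3 or more of the 9 libraries and were tested. limma 3.58.1 in R 4.3.3 was fitted by group to all 9 libraries (6 residual degrees of freedom, intensity trend, two-sided), with Benjamini-Hochberg adjustment over all tested genes. The fit was checked on simulated data with real means and spread, drawn from a normal distribution independently for each gene. In it 100 genes had a log2 change of 1 and another 100 a change of 2. These were taken from genes with a mean log2(FPKM + 1) above 2, so recovery of weaker genes was not checked. Recovery in treated against untreated SHR was 89 and 96 genes, with 8 others called. In untreated SHR against WKY it was 74 and 97, with 8 others. In the comparison of treated SHR with WKY it was 79 and 96, with 9 others. These runs used the same means and spread and differed in the random draws. They therefore do not show that changes are found better in any comparison. Alternatives changed the pseudocount, filter, scaling, trend, weights and libraries, or added a replicate block or a proximal tubule covariate.

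The uptake genes, gene lists, cell markers and alternatives were chosen with earlier results of these data known. Further named genes follow a rule. It takes up to 4 called genes per list and comparison by p, or up to 2 where none was called. It adds the 5 genes most like Cd36 and the 2 most like each other gene by Pearson's r, and the 3 listed genes on each side of Cd36. A GRCr8 reference table (17897 IDs matched) gave names, gene order and promoters, and its coordinates were not joined to the files, whose build differs.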

Additional observations from a re-analysis of the deposited data

How the results depend on the processing

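Leaving out 1 library in turn kept 1 uptake gene called in untreated SHR against WKY, gave 0 to 2 in treated against untreated SHR and 1 to 6 in treated SHR against WKY. The genes called over the whole table then ranged from 135 to 625, from 0 to 834 and from 515 to 4789 in the same order of comparisons, against 388, 0 and 3010. In treated SHR against WKY, the 5 uptake genes called became 3 with no filter, where 2556 of 19028 genes were called. They became 2 after quantile normalization, where 1581 of all 13127 tested genes were called higher and 1057 lower. After median-of-ratios scaling 3 uptake genes were called, where 1445 of the 13127 were higher and 1251 lower. With only those groups fitted it was 2, where 1026 genes were called in all. With the proximal tubule covariate it was 0, where 13 genes were called. Array weights called 2 uptake genes in untreated SHR against WKY, 6 in treated against untreated SHR and 9 in treated SHR against WKY. Of all 13127 tested genes, 3911, 3590 and 8811 were called in the same order. With the covariate, 0 uptake genes and 79 genes were called in untreated SHR against WKY. Nothing in the labels pairs the samples by replicate number, so whether they are paired is not known. Correlations of deviations were -0.328 to 0.456 over 9 same-number pairs, 3 of them above 0.1, and -0.532 to 0.327 over pairs with different numbers. A fit with the replicate block called 3 uptake genes in treated SHR against WKY, where 1961 of all tested genes were called higher and 739 lower. That fit called 1 gene in all in treated against untreated SHR.

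Of 540 values of single uptake genes under the alternatives, 446 kept their direction and their side of the threshold, 37 fell short of it, 17 newly passed it and 40 changed sign. Of those, quantile normalization turned Slc27a1 to -0.0643 and Lpl to -0.0344 in untreated SHR against WKY. Median-of-ratios scaling turned Slc27a1 to -0.0438 and Lpl to -0.0665 in that comparison and Plin2 to -0.0724 in treated SHR against WKY. Array weights turned Lpl to -0.0892 and Plin2 to 0.0953 in untreated SHR against WKY. The proximal tubule covariate turned, in untreated SHR against WKY, Slc27a1 to -0.1288, Slc27a2 to 0.0853, Slc27a4 to -0.1350, Fabp3 to -0.1452, Fabp4 to 0.5032 and Fabp5 to 0.3152. In treated against untreated SHR it turned Cd36 to 0.2005, Slc27a2 to 0.2683, Slc27a4 to -0.0605, Fabp3 to -0.0362, Fabp4 to 0.0212, Fabp5 to 0.4425, Lpl to 0.2206 and Plin2 to -0.0095. In treated SHR against WKY it turned Slc27a1 to -0.0427, Slc27a2 to 0.3537, Slc27a4 to -0.1955, Fabp3 to -0.1814, Fabp4 to 0.5244, Fabp5 to 0.7577, Lpl to 0.4773 and Plin2 to -0.1512. Leaving out 1 library gave, in untreated SHR against WKY, -0.0059 to 0.0752 for Slc27a1, -0.2175 to 0.3239 for Lpl, -0.1489 to 0.0044 for Plin2, -0.4848 to 0.1943 for Fabp4. Leaving out 1 library gave, in treated SHR against WKY, -0.0333 to 0.12 for Plin2, -0.3454 to 0.0215 for Lpl. Leaving out 1 library gave, in treated SHR against untreated SHR, -0.4393 to 0.0392 for Lpl. The cause of these changes was not tested. Weakly expressed Cd36, Fabp4 and Fabp1 are limited by unknown depth.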
